A study of Mus musculus with 14 samples.

Results

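The peaks described here are the isolated H3K27me3 peaks of mouse embryonic stem cells (mESCs), which stand alone on their stretch of chromosome. A peak was taken as isolated where it lay on an autosome, was narrower than 2000 bp and had no other peak of the deposited table within 100 kb on either side. This rule uses positions and widths only, and no level entered it. It selected 1557 of 74458 peaks, or 2.14% of the 72851 autosomal peaks. H3K27me3 had been mapped by Cut&Tag, in which the transposase Tn5 is tethered to an antibody and inserts sequencing adapters next to the mark. The cells were G4 mESCs of a 129/Sv × C57BL/6 F1 background kept with LIF on CD1 feeder cells, and CRISPR-Cas9 had removed a stretch at which Polycomb loops are anchored. This was the Hoxa cluster in 3 libraries, Wnt6 in 2 and Hmx1 in 2. Unedited cells had no column in the table, so that the libraries of a deletion were set against those of the other 2, pooled. A deletion and the clone that carries it cannot be told apart, since the labels name no clones.

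H3K27me3 is deposited by Polycomb repressive complex 2, whose subunits EZH1 and EZH2 carry the methyltransferase activity and whose subunit EED binds the mark already in place. In mESCs the complex is recruited mainly to CpG-rich promoters of silent genes, and from there the mark can spread along the chromatin. The best known targets are genes of transcription factors and signals that pattern the embryo, which often lie in wide domains joined to one another by chromatin loops. A peak far from any other has no such domain around it.

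Promoter sequences at 5 isolated peaks show how different the DNA under these peaks can be. They are the 250 bases before the annotated start (RefSeq, GRCm38.p6), 5′ to 3′ on the strand of the gene, with each CG dinucleotide in capitals. Plcb1, a phospholipase C that acts downstream of G protein-coupled receptors, had the highest level of all isolated peaks at a CG-dense start. Unc80, a subunit of the NALCN sodium leak channel complex, and Sema3d, a secreted guidance cue, had high levels with few CG. Tmem62 had the only peak at a promoter that was called as changed, and Olfr982 was the only odorant receptor gene with an isolated peak at its promoter. The Tmem62 sequence overlaps its peak only at the last bases, and the Olfr982 sequence ends just before its peak.
Plcb1, chr2:134785914-134786163, plus strand: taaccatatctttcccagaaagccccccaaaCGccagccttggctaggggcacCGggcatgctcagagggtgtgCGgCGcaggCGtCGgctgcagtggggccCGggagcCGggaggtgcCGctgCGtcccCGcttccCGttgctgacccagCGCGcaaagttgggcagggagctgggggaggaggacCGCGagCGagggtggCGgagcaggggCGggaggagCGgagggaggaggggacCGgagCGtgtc
Unc80, chr1:66467684-66467933, plus strand: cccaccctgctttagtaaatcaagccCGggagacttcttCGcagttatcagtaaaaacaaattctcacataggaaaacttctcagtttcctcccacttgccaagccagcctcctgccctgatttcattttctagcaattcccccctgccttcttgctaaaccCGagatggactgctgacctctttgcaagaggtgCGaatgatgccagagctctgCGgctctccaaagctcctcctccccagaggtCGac
Sema3d, chr5:12382916-12383165, plus strand: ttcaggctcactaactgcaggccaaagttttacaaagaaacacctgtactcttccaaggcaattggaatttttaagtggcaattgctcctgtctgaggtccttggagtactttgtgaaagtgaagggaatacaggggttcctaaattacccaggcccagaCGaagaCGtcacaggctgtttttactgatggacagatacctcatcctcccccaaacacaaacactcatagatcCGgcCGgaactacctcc
Tmem62, chr2:120976812-120977061, plus strand: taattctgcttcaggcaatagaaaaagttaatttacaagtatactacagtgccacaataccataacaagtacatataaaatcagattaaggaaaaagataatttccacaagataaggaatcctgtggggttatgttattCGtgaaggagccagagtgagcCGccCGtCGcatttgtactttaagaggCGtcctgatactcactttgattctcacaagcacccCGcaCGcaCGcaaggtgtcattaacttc
Olfr982, chr9:40074047-40074296, plus strand: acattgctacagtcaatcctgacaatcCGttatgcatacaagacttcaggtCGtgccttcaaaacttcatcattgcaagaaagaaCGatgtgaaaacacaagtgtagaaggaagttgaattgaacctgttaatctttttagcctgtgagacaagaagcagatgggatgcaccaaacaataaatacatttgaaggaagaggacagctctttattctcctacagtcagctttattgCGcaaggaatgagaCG

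The Plcb1 sequence holds 22 CG in its 250 bases (GC content 71.2%), the Unc80 sequence 6 (51.2%), the Sema3d sequence 4 (46.8%), the Tmem62 sequence 8 (40.4%) and the Olfr982 sequence 5 (40.0%). Mean levels over the 7 libraries were 171 CPM (the count relative to the library total, scaled by TMM factors) at Plcb1, 127 CPM at Unc80 and 107 CPM at Sema3d. At Tmem62 and Olfr982 they were 9.76 and 7.24 CPM. A count of CG did not order these 5 peaks by level, but Sema3d and Olfr982 were chosen for few CG among the gene families. How CG relate to level can therefore not be read from these 5.

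Library totals over all peaks ranged from 6016500 to 36563541 counts, and the median count of an isolated peak ranged from 16 in Hmx1 replicate 1 to 101 in Wnt6 replicate 2. Up to 5 isolated peaks per library had no count. The labels do not say whether replicates came from separate cultures, so that p-values measure the spread between these libraries, which may be technical. Of 8 genes active in mESCs, Nanog, Tdgf1 and Dppa5a had no peak within 2 kb, Zfp42 (Rex1) had a single isolated peak of 3.06 CPM, and Esrrb had 239 CPM summed over 21 peaks. Of 8 fibroblast genes of the kind feeder cells express, 6 had summed levels from 74.1 CPM at Col1a2 to 277 CPM at Twist2, and Col3a1 and Postn had no peak. What part of the counts came from feeder cells was not tested.

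Isolated peaks were weak on the whole, and away from promoters they were weaker than other narrow peaks. Their median level was 2.60 CPM (interquartile range 1.52 to 5.14), against 3.68 CPM for the 69054 narrow autosomal peaks with a neighbour within 100 kb and 124 CPM for the 2240 broad peaks of 2000 bp or more. Widths were nearly the same, with a median of 456 bp for isolated and 465 bp for other narrow peaks. Per kilobase of peak, the median was 5.68 CPM for isolated and 7.61 CPM for other narrow peaks. In every library the isolated peaks lay below, by 0.376 ± 0.0529 (SD, n = 7) in median log2 CPM per kb (range 0.323 to 0.449). The exact two-sided sign-flip test over the libraries gave p = 0.015625, the smallest that 7 libraries allow. All libraries measured the same 2 sets of peaks, so that this p covers only repeat measurement of these sets. A few isolated peaks stood out nonetheless. Of all isolated peaks, 222 (14.3%) were above 10 CPM, against 20.7% of other narrow peaks, and 44 were above 50 CPM, while 74 (4.75%) were under 1 CPM.

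The level was higher where more peaks lay nearby, as a description over all narrow peaks. Median CPM per kb was 5.68 with 0 neighbours within 100 kb, 5.72 with 1, 6.06 with 2 to 4, 6.45 with 5 to 9, 7.50 with 10 to 19 and 10.5 with 20 or more. Isolated peaks and those with 1 neighbour therefore had nearly the same median. Among the isolated peaks the median level per kilobase was 5.76 CPM per kb for the 792 with a nearest peak at 100 to 150 kb, 5.62 for the 524 at 150 to 250 kb and 5.59 for the 241 beyond. Without division by width the medians were 2.76, 2.53 and 2.17 CPM, and the share above 10 CPM was 15.9%, 14.3% and 8.71%. Width was followed by the level, from 4.97 CPM per kb for the 354 isolated peaks under 300 bp to 11.6 for the 194 of 1000 bp or more.

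**Figure D1:**
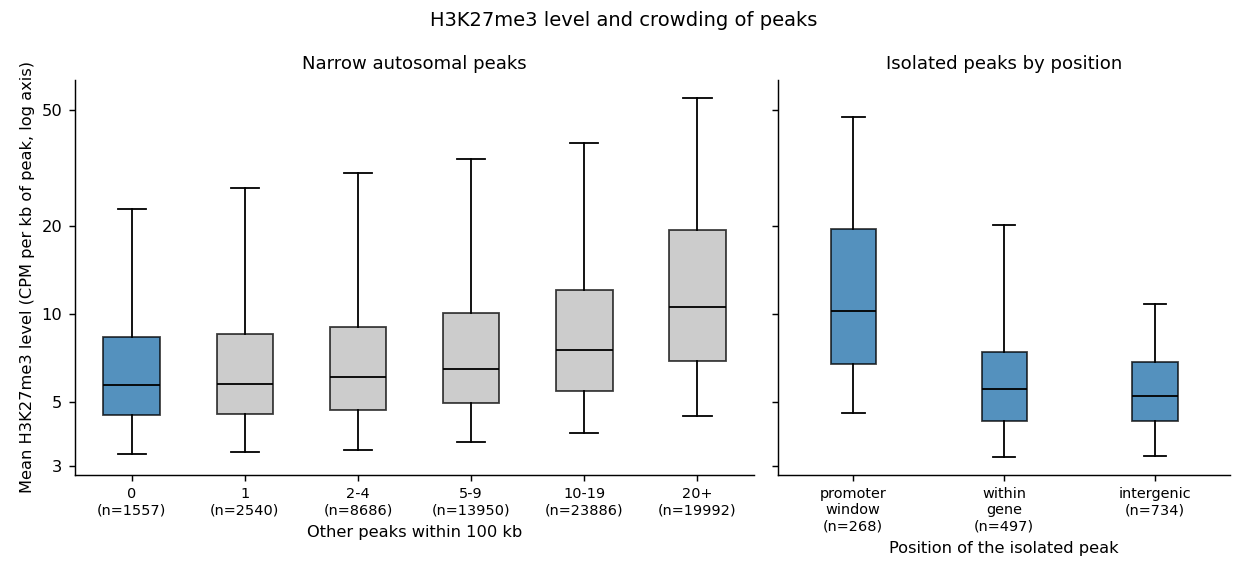
Mean H3K27me3 level of narrow autosomal peaks in CPM per kb of peak (log axis), over the 7 libraries, by the number of other peaks within 100 kb (left) and, for isolated peaks only, by position (right). Boxes show the median and interquartile range and whiskers the central 90% of peaks, with isolated peaks in blue. Medians run from 5.68 at 0 neighbours to 10.5 at 20 or more, and isolated peaks at promoter windows (10.2) stand above those within genes (5.52) and between genes (5.23).

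Isolated peaks at promoters had higher levels than those elsewhere, as was also the case for other narrow peaks. Of 1499 isolated peaks on the 18 autosomes with promoter windows here (250 bases before to 50 after each start), 268 (17.9%) overlapped such a window, 497 (33.2%) lay within a gene away from it, and 734 (49.0%) lay between genes. Among other narrow peaks these shares were 14.1%, 49.9% and 35.9%. Isolated peaks were thus more often intergenic and less often within genes, as a description with no test, since peaks are not replicates. The median level of isolated peaks was 8.58 CPM at promoter windows, 2.36 CPM within genes and 2.10 CPM between genes. Other narrow peaks had 8.29, 3.65 and 2.94 CPM in these classes. The 2 sets were thus close at promoter windows, and isolated peaks were weaker elsewhere. Isolated peaks at promoters were also wider, with a median of 852 bp against 441 and 388 bp. They stayed higher per kilobase, with library medians of 9.25 to 11.5 CPM per kb. These were 5.27 to 6.09 within genes and 4.84 to 5.75 between genes. The library medians of the promoter peaks did not overlap those of the other classes. Single peaks did overlap, with interquartile ranges of 4.13 to 19.9 CPM at promoter windows and 1.46 to 4.69 CPM within genes. Of the 58 isolated peaks on chromosome 18, where no promoter windows were used, the median level was 3.33 CPM.

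Isolation from other peaks went along with distance from genes. Of the isolated peaks, 708 (45.5%) had no protein-coding gene within 100 kb, against 9.58% of other narrow peaks, and 634 (40.7%) overlapped a coding gene, against 52.4%. The distance to the nearest peak had a median of 148 kb (interquartile range 119 to 209 kb), and for 27 isolated peaks it exceeded 500 kb. The most remote one lay 1084 kb from its nearest peak, between genes near the vomeronasal receptor gene Vmn2r44 (chr7:8384754-8385003), at 1.18, 1.72 and 0.58 CPM in the Hoxa, 2.26 and 2.27 CPM in the Wnt6 and 1.69 and 1.30 CPM in the Hmx1 libraries. The next ones, near 1700009N14Rik (841 kb, 4.94 CPM), Amy2b (789 kb, 2.84 CPM) and Gm10573 (781 kb, 3.88 CPM), were intergenic as well. By chromosome, isolated peaks made up between 0.95% of peaks on chromosome 8 (53 of 5580) and 3.67% on chromosome 16 (84 of 2289).

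Promoters at isolated peaks were CpG-rich as a group. The 377 promoter windows that the isolated peaks overlapped, of 330 genes, had a median of 23 CG in 300 bases and a GC content of 63.7%. Windows at other narrow peaks had a median of 20 CG, windows at broad peaks 23, and the 17363 windows at no peak 3. By a common criterion of CpG richness (GC content of at least 50% and at least 0.6 of the CG that base composition gives), 71.4% of windows at isolated peaks qualified, against 65.3% at other narrow peaks, 68.6% at broad peaks, 8.41% at no peak and 34.1% of all windows. The mark at these peaks was not strongest where CG were most frequent. Isolated promoter peaks with 26 or more CG had a median of 8.65 CPM (119 peaks), those with 16 to 25 CG 11.6 CPM (71 peaks), those with 6 to 15 CG 7.25 CPM (69 peaks) and those with up to 5 CG 3.00 CPM (9 peaks).

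The highest isolated peaks differed little between the 3 deletions. Of the 12 with the highest mean CPM, 9 overlapped a promoter window, those within Lyn and Adamtsl1 did not, and Htr4 is on chromosome 18, where no windows were used. The Plcb1 peak (chr2:134785770-134787469) had 160, 148 and 172 CPM in the Hoxa, 193 and 150 CPM in the Wnt6 and 205 and 172 CPM in the Hmx1 libraries. The groups overlapped, and 2 libraries of the same deletion differed as much as the deletions did. Rgs7, which speeds up the turning-off of G proteins in neurons (chr1:175491530-175493220), had 135, 129 and 135 CPM in the Hoxa, 157 and 127 CPM in the Wnt6 and 166 and 141 CPM in the Hmx1 libraries. At Unc80 (chr1:66467657-66468965) the values ran from 114 to 144 CPM in the 7 libraries.

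Several of the remaining ones belong to genes of neurons and of cell signalling. Htr4, the serotonin receptor gene (chr18:62323323-62325184), ran from 117 to 134 CPM, and Gabra2, a subunit of the GABA-A receptor, from 110 to 123 CPM. Sema3d ran from 97.6 to 120 CPM. Dmrta1, a transcription factor gene of the DM domain family, had a mean of 116 CPM, Calcr, the calcitonin receptor gene, 113 CPM, and Lyn, a kinase of the Src family, 111 CPM. L3mbtl4 had a mean of 106 CPM, Megf9 106 CPM, and Adamtsl1 102 CPM. At Htr4, Sema3d and L3mbtl4 both Hmx1 libraries lay above every other library, and at Gabra2 the Hoxa libraries lay below every other one. None of the 12 was called in any deletion. Their log2 fold changes lay between -0.17 and 0.25 with standard errors of 0.08 to 0.11, and the smallest adjusted p among these 36 values was 0.245, at Plcb1 in the Hoxa deletion.

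**Figure D2:**
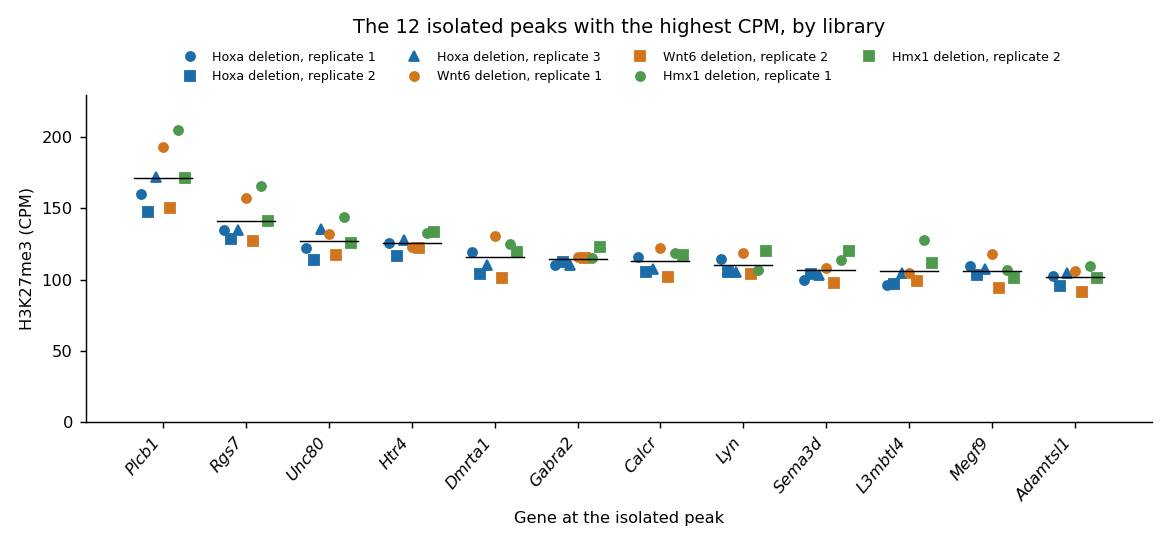
H3K27me3 in CPM (vertical axis, from 0) at the 12 isolated peaks with the highest mean, named by the gene at the peak. Each point is a library, colours stand for deletions, shapes for replicates and lines for the mean over the 7 libraries. The Plcb1 peak has a mean of 171 CPM, and at Htr4, Sema3d and L3mbtl4 the 2 Hmx1 points lie above all others by small margins, with no call.

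Families of genes known as Polycomb targets were scarce among isolated peaks, whereas genes of neurons were not. The rule itself removes peaks with a neighbour within 100 kb, so that genes where peaks lie close together drop out by design. The shares describe what the rule kept and were not tested. The families were taken by the first letters of the symbol, and a peak counted where it lay over a gene or within 10 kb of one, which for isolated peaks added members to the chemoreceptors only. Of 206 developmental transcription factor genes, 2 had an isolated peak over them, Dmrta1 and Foxp2, which made up 0.128% of isolated peaks. The same genes held 1.91% of other narrow peaks, or 1.03% over genes alone. Of 86 genes of developmental signals and their partners, Fgf10, the growth factor of lung and limb buds, had an isolated peak at its promoter (55.5 to 66.5 CPM), and Bmper, which binds BMP proteins, had one of 4.68 CPM, together 0.128% of isolated against 0.647% of other narrow peaks. Over genes alone, these signals held 0.434% of other narrow peaks. The 370 genes of neuronal channels, receptors and adhesion proteins held 57 isolated peaks over 36 genes. The shares were 3.66% of isolated and 3.34% of other narrow peaks, the latter 2.76% over genes alone. Of these 57, 8 lay at a promoter window, where the median was 66.3 CPM, against 2.76 CPM over all 57. Cntn3, a cell adhesion gene, had the highest one after Htr4, Gabra2 and Sema3d, at 101 CPM.

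Chemoreceptor genes encode receptors for odorants, pheromones and tastes and lie in large clusters. They had 23 isolated peaks, 5 over a gene and 18 within 10 kb of one, 1.48% of isolated against 0.408% of other narrow peaks. Over genes alone the shares were 0.321% and 0.119%. Their levels reached at most 14.9 CPM, with a median of 2.85 CPM. Olfr982 had 6.82, 10.4 and 8.63 CPM in the Hoxa, 6.89 and 7.37 CPM in the Wnt6 and 5.92 and 4.72 CPM in the Hmx1 libraries. The other ones named by level, at Vmn2r102, Vmn2r23 and Olfr601, had 4.83, 1.79 and 1.53 CPM. Vmn2r23 lay 597 kb from the nearest peak.

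Zinc finger genes of the Zfp symbol held 12 isolated peaks, 11 of them at a promoter window, 0.771% of isolated against 1.17% of other narrow peaks. Over genes alone the shares were nearly the same, 0.771% and 0.824%. Zfp804b had 84.7 CPM and Zfp277, whose peak also covers the start of Dock4, 46.4 CPM, while Zfp996 and Zfp606 had 11.1 and 5.23 CPM. Imprinted genes, which are expressed from a single parental copy, had 3 isolated peaks, over Ube3a (11.8 CPM), Dcn (2.27 CPM) and Snrpn (1.65 CPM). Of 18 germline genes that promoter methylation keeps silent, none had an isolated peak, while 60 other narrow peaks (0.0869%) lay at them.

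Replicates of the same deletion spread at isolated peaks about as much as at other narrow peaks with like counts. The median SD of log2 CPM within a deletion was 0.310 over all isolated and 0.259 over other narrow peaks, but isolated peaks had fewer counts. In bins of mean count it was 0.555 for isolated and 0.552 for other narrow peaks under 20 counts, 0.399 and 0.383 at 20 to 50, 0.267 and 0.274 at 50 to 100, 0.200 and 0.203 at 100 to 200, 0.155 and 0.150 at 200 to 500, and 0.125 and 0.107 from 500 counts. Weighted over the bins, the difference was 0.00705, with the SD of a peak pooled over the deletions. Differences computed in each deletion by itself had an SD of 0.0035 over the 3 deletions. An exact sign-flip test over 3 deletions cannot reach 0.05, and the difference was not tested. Counting error by itself gave a root mean square SD of 0.303 at 20 to 50 counts, where 718 of the isolated peaks lay, against 0.472 measured, and of 0.0570 from 500 counts, against 0.130 measured.

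**Figure D3:**
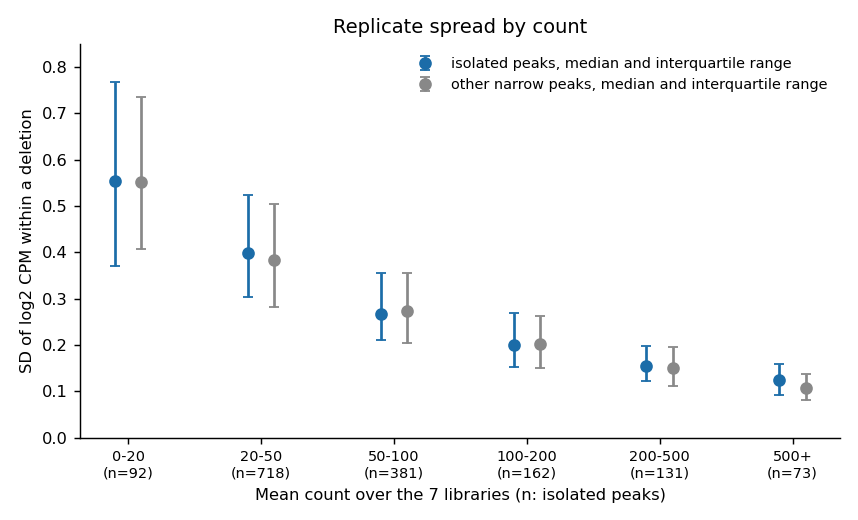
SD of log2 CPM among libraries of the same deletion (vertical axis) by the mean count of the peak over the 7 libraries (horizontal axis), for isolated peaks in blue and other narrow peaks in grey. Points are medians and bars interquartile ranges over peaks. The medians fall from 0.555 to 0.125 for isolated peaks, and the ranges of the 2 sets overlap in every bin.

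Some isolated peaks were unstable between replicates. Among those with a mean count of at least 20, the largest spread was at a peak within Rbfox1, a neuronal splicing regulator (chr16:6156900-6157149), with 0, 1.18 and 1.68 CPM in the Hoxa, 0.93 and 2.09 CPM in the Wnt6 and 2.54 and 1.97 CPM in the Hmx1 libraries. The library at 0 was Hoxa replicate 1, among the shallower ones. Peaks near Btg1 and near Grm3 had no count in Hmx1 replicate 1, the shallowest library, and 2.16 and 1.53 CPM in Hmx1 replicate 2. A peak near Gm52257 had 0.12 CPM in Hoxa replicate 1 against 1.30 and 1.74 CPM in the others of that deletion.

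The share of all counts that fell in isolated peaks was the same for the 3 deletions within the spread of the libraries. It was 1.05%, 1.08% and 1.09% in the Hoxa, 1.08% and 1.08% in the Wnt6 and 1.10% and 1.04% in the Hmx1 libraries. The difference from the other libraries was 0.00225 percentage points for Hoxa (exact two-sided permutation p = 0.914), 0.00464 for Wnt6 (exact p = 0.952) and -0.00734 for Hmx1 (exact p = 0.857). The smallest p that the design allows is 0.0571 for Hoxa and 0.0952 for the other 2.

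Changes at single isolated peaks were tested in edgeR with all peaks of the table, and a peak was called where the log2 fold change exceeded 1 in size and the Benjamini-Hochberg adjusted p was under 0.05. The 3 comparisons share their libraries, so that a peak high in one deletion is low in the comparisons of the others. Of the 1557 isolated peaks 1556 passed the filter on low counts. The one left out lay within Babam2 (chr5:31988844-31989172) with 0 to 8 counts per library. None lay inside a deleted stretch, as seen from runs of peaks that lost their signal, with 46 peaks at Hoxa, 34 at Wnt6 and 11 at Hmx1.

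In the Hoxa deletion 29 isolated peaks were called, 7 higher and 22 lower. This is 1.86% of those tested, where 1.57% of all autosomal peaks tested were called (0.571% higher and 0.998% lower). The isolated peaks were thus called about as often as peaks in general. Without the threshold on fold change 99 passed (6.36%), 51 higher and 48 lower, where 8.59% of all autosomal peaks tested passed (4.35% higher and 4.25% lower). The called peaks were weak, with mean levels from 0.645 to 9.76 CPM and a median of 1.51 CPM, and 27 of the 29 were under 5 CPM. At 26 of them, 5 higher and 21 lower, every Hoxa library lay beyond every other library. Peaks called in this same contrast tend to be split in this way, so that the count adds no support. The share among all called peaks was not computed. By position 14 were intergenic, 14 lay within genes and 1, at Tmem62, was at a promoter window.

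Chromosome 8 held 13 of the 22 lower peaks. All 13 called isolated peaks there were lower in the Hoxa deletion, and the 53 isolated peaks of this chromosome had a median log2 fold change of -0.77. The chromosome was lower as a whole, with a median of -0.59 over its 5579 tested peaks, of which 533 were called lower. What set the chromosome apart was not tested. With the median of each chromosome removed, 8 of the 29 calls were kept, none of them on chromosome 8. Off chromosome 8, 16 of 1503 isolated peaks were called (1.06%), 7 higher and 9 lower. Of all 67257 autosomal peaks tested off that chromosome 610 were called (0.907%), 416 higher and 194 lower. Higher calls thus outnumbered lower ones among all peaks but not among the isolated ones, whose calls were few.

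**Figure D4:**
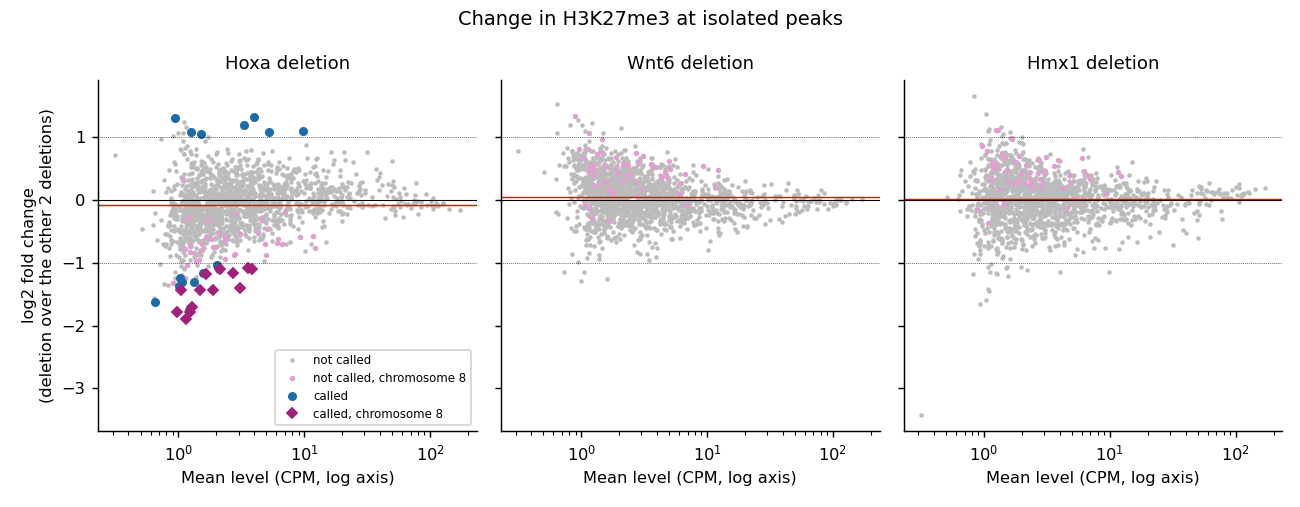
Log2 fold change of each isolated peak (vertical axis, the named deletion over the other 2) against its mean level in CPM (horizontal log axis) in the 3 comparisons. Dotted lines mark a log2 fold change of 1 and -1, the red line the median over isolated peaks, diamonds and pale pink points the peaks of chromosome 8. The 29 called peaks are all in the Hoxa panel, 13 of them lower peaks on chromosome 8, and no called peak is above 9.76 CPM.

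Tmem62, which encodes a transmembrane protein, had the smallest adjusted p among the called isolated peaks. Its peak (chr2:120977041-120978092) had 15.2, 13.5 and 13.9 CPM in the Hoxa, 8.34 and 7.45 CPM in the Wnt6 and 4.56 and 5.51 CPM in the Hmx1 libraries. The 3 deletions did not overlap, with Hoxa highest and Hmx1 lowest. The log2 fold change of Hoxa over the others was 1.09 ± 0.15 (SE, adjusted p = 1.24e-06). Against Wnt6 alone it was 0.85 ± 0.16 (adjusted p = 2.31e-04), under the threshold on fold change, and against Hmx1 alone 1.43 ± 0.19 (adjusted p = 2.02e-07). Wnt6 over Hmx1 was 0.57 ± 0.23 (adjusted p = 0.715), so that these 2 were not told apart. Without Hmx1 replicate 2 the change was 0.99, just under the threshold.

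The other called peaks that were higher in every Hoxa library lay within Gm45957, Zfp462 and Dip2c and near Gap43. The Gm45957 peak (chr9:4155871-4156626) had 6.82, 7.80 and 7.93 CPM in the Hoxa, 3.91 and 3.79 CPM in the Wnt6 and 2.87 and 3.50 CPM in the Hmx1 libraries, a log2 fold change of 1.07 ± 0.18 (adjusted p = 2.29e-05). Zfp462, a zinc finger protein of pluripotent cells, had a peak (chr4:54944958-54945384) with 3.76, 4.55 and 5.48 CPM in the Hoxa, 2.37 and 1.88 CPM in the Wnt6 and 3.72 and 1.38 CPM in the Hmx1 libraries (1.18 ± 0.25, adjusted p = 7.64e-04). Hmx1 replicate 1 lay just under the lowest Hoxa library there, and without Hmx1 replicate 2 the change was 0.97. The peaks in Dip2c (1.05 ± 0.32, adjusted p = 0.0303) and near Gap43, a protein of growing axons (1.08 ± 0.36, adjusted p = 0.0459), had under 3 CPM in every library. Both calls were lost in DESeq2 (adjusted p = 0.0583 and 0.0785). The Gap43 call was also lost without any one of the 7 libraries (adjusted p from 0.0613 to 0.246), and the Dip2c call without Hoxa replicate 2 (0.210), Hoxa replicate 3 (0.0609), Hmx1 replicate 2 (0.103) or Hmx1 replicate 1, where the log2 fold change was 0.97.

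A further higher peak, near Gm2244 (chr14:19417241-19418884), rested on part of the libraries. It had 6.70, 8.90 and 2.77 CPM in the Hoxa libraries against 2.03 to 3.03 CPM in the others, so that Hoxa replicate 3 lay among the others. A peak near Pced1b had 1.18, 2.10 and 0.77 CPM against 0.41 to 1.01 CPM, also with an overlap.

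Among the lower peaks, the 6 with the smallest adjusted p were all on chromosome 8, and with chromosome medians removed none of these 6 was called. The peak near Gm21119 (chr8:20678348-20678877) had 1.29, 1.41 and 2.0 CPM in the Hoxa, 4.43 and 4.00 CPM in the Wnt6 and 4.56 and 4.05 CPM in the Hmx1 libraries, a log2 fold change of -1.40 ± 0.25 (adjusted p = 6.64e-05). Near Triml1 (chr8:42796143-42796467) the levels were 0.35, 0.50 and 0.45 CPM in the Hoxa, 1.65 and 1.93 CPM in the Wnt6 and 1.69 and 1.5 CPM in the Hmx1 libraries (-1.90 ± 0.42, adjusted p = 0.00137). This was the lowest value among the isolated peaks in the Hoxa deletion. The others were within Msr1, a scavenger receptor gene of macrophages (-1.16 ± 0.26), near Fbxo8 (-1.44 ± 0.32), near Aga, which encodes a lysosomal enzyme (-1.10 ± 0.22), and near Cntnap4, a neuronal adhesion gene (-1.08 ± 0.24). The Cntnap4 peak fell short of the fold change threshold without Hoxa replicate 2 (-0.93) or Hmx1 replicate 1 (-0.99), and the Aga peak without Hoxa replicate 3 (-0.99).

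Off chromosome 8 the 9 lower peaks were spread over several chromosomes and included genes of neurons. A pair of them lay within Grm7, a metabotropic glutamate receptor gene on chromosome 6, which is the chromosome of the Hoxa deletion but far from it (chr6:110864524-110864924 and chr6:111071866-111072175). The second had 0.59, 0.53 and 0.52 CPM in the Hoxa, 1.96 and 2.22 CPM in the Wnt6 and 1.01 and 1.73 CPM in the Hmx1 libraries (log2 fold change -1.75), and the first -1.04. A peak within Robo2, an axon guidance receptor gene, had 0.71, 0.73 and 0.39 CPM against 0.85 to 1.72 CPM in the other libraries. The Robo2 call (adjusted p = 0.0483) and that of the first Grm7 peak (adjusted p = 0.0401) were lost in DESeq2, with chromosome medians removed and against Wnt6 alone. A peak within Hdac9, a histone deacetylase gene, had 0.71, 1.15 and 0.77 CPM against 2.01 to 2.20 CPM, with no overlap. The Hdac9 call was kept in DESeq2 and with chromosome medians removed. It was lost against each other deletion alone, with the replicate block and at equal depth. The remaining ones were within Stpg2 and near Ralyl, Hs3st1, Vmn1r158 and Gm15501. Calls at Stpg2, Hs3st1 and Vmn1r158 were lost in DESeq2, with the replicate block and with chromosome medians removed. Those near Ralyl and Gm15501 were kept in DESeq2 and with chromosome medians removed, but both were lost at equal depth. The Ralyl call was also lost against Wnt6 alone, and the Gm15501 call against Hmx1 alone and with the replicate block.

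**Figure D5:**
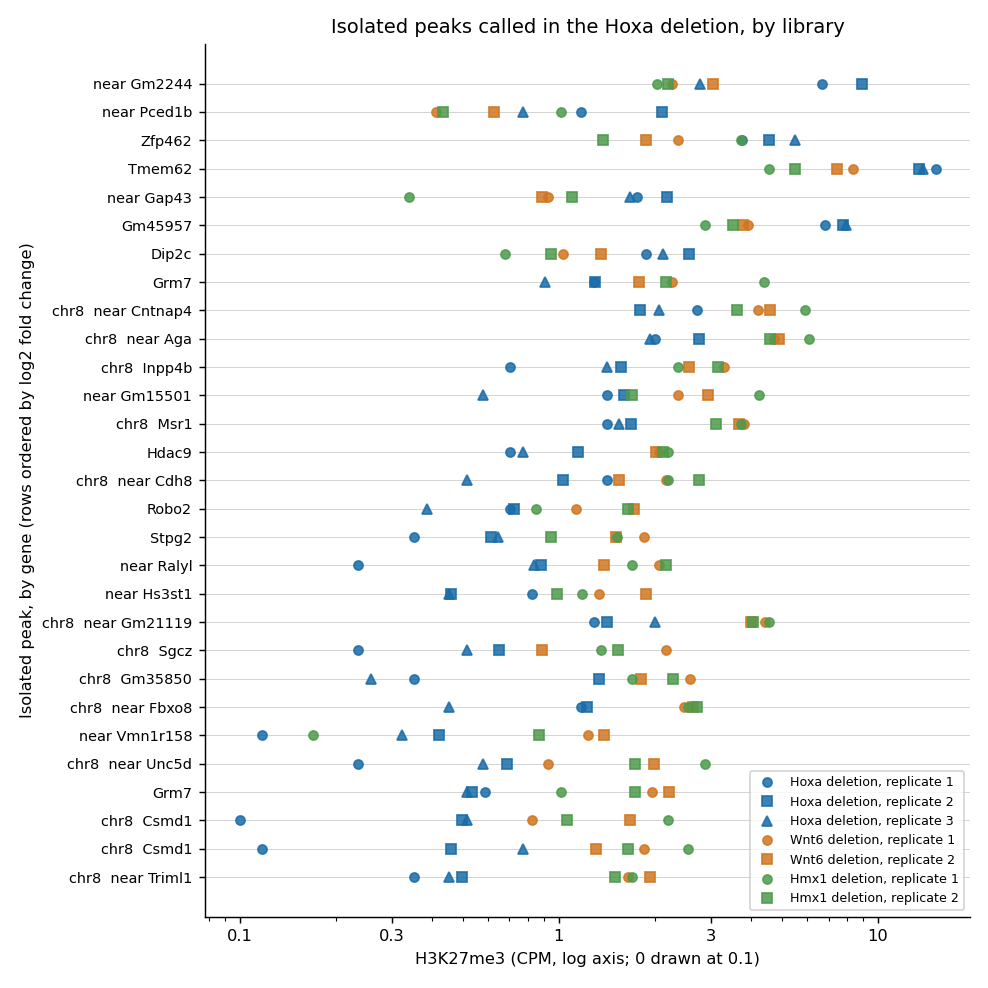
H3K27me3 in CPM (horizontal log axis, with 0 drawn at 0.1) in each library at the 29 isolated peaks called in the Hoxa deletion, one peak per row, ordered by log2 fold change with the most negative at the bottom. Labels give the gene at the peak or the nearest coding gene and mark chromosome 8, colours stand for deletions and shapes for replicates. At 26 of the 29 peaks the 3 Hoxa points lie wholly to one side of the other 4, but the peaks were selected by this same contrast.

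The stronger isolated peaks changed by less than the threshold on fold change. Of 97 isolated peaks with a mean of at least 20 CPM, 10 (10.3%) had an adjusted p under 0.05 in the Hoxa deletion, all higher, and none was called. Of the 7260 other narrow peaks of this level, 1088 passed, 564 higher (7.77%) and 524 lower (7.22%). Chromosome 8 held 2276 of the 3093 autosomal peaks of any level that passed lower, but only 53 of the 1556 isolated peaks. The directions of the 2 sets at this level were not compared without that chromosome. The 10 isolated peaks were picked after their values were seen. Dennd5b, a regulator of membrane traffic (promoter window, chr6:149100500-149102116), had 63.2, 62.2 and 61.9 CPM in the Hoxa, 45.7 and 43.7 CPM in the Wnt6 and 33.6 and 38.8 CPM in the Hmx1 libraries, a log2 fold change of 0.62 ± 0.10 (adjusted p = 1.43e-05). As at Tmem62, the 3 deletions did not overlap. Gm10479 (0.75 ± 0.11) and Gm13034 (0.76 ± 0.12) had the largest values. Cyp7b1, an enzyme of oxysterol metabolism, had 24.8, 25.4 and 28.0 CPM in the Hoxa libraries against 15.3 to 18.5 CPM in the others (0.64 ± 0.12, adjusted p = 1.18e-04). Pde4d, a cAMP phosphodiesterase, had 41.5, 47.2 and 45.0 CPM against 29.9 to 34.2 CPM (0.49 ± 0.10, adjusted p = 6.98e-04). Ahr, the aryl hydrocarbon receptor, had 47.6, 40.5 and 46.7 CPM against at most 42.6 CPM in the other libraries (0.36 ± 0.11, adjusted p = 0.0259), where Hmx1 replicate 1 overlapped the Hoxa libraries. The others were Msl3l2, Gm4983, Pgap1 and Cnksr3.

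In the Hoxa deletion the shift towards lower values was found mainly at the weakest isolated peaks, where the median standard error was 0.36. The median log2 fold change over isolated peaks was -0.08, against -0.005 over all autosomal peaks tested. It was -0.21 for the 592 isolated peaks under 2 CPM, -0.05 at 2 to 5 CPM, 0.04 at 5 to 20 CPM and -0.01 from 20 CPM. Other narrow peaks had -0.09, -0.002, 0.03 and 0.01 in these ranges, so that the weakest isolated peaks lay lower than other narrow peaks of like level. By position the median was 0.06 at promoter windows, -0.11 within genes and -0.13 between genes. Other narrow peaks had 0.08, -0.01 and -0.04 in these classes. At promoter windows 19 of 268 isolated peaks passed the adjusted p higher (7.09%) and 4 lower (1.49%), where 8.10% and 3.39% of other narrow peaks at promoters did. Between genes 9 of 734 passed higher (1.23%) and 25 lower (3.41%), where 2.62% and 4.44% of other narrow peaks did. These shares by position include chromosome 8. Without chromosome 8 the median was -0.07 over isolated peaks and 0.02 over all autosomal peaks. Off that chromosome 3.39% of isolated peaks passed the adjusted p higher and 1.60% lower, where 4.71% and 1.21% of all did. The part of depth or library preparation in this pattern was not tested.

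On chromosome 6, 2 of 96 isolated peaks were called in the Hoxa deletion (2.08%), both those in Grm7. Of all tested peaks of this chromosome 3.29% were called, the deleted stretch included, and of all autosomal peaks 1.57%. None of the 11 isolated peaks within 10 Mb of the stretch was called, a number too small to set against these shares. The nearest isolated peaks to either side were 3883 kb away within Gm16630, with 0.71, 0.92 and 0.52 CPM in the Hoxa and 0.17 to 1.44 CPM in the other libraries, and 3909 kb away within Pde1c, with 5.29, 4.43 and 3.22 CPM in the Hoxa, 3.91 and 2.59 CPM in the Wnt6 and 1.35 and 2.56 CPM in the Hmx1 libraries. Both overlapped between the groups, and the adjusted p was 0.668 and 0.0687.

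In the Wnt6 deletion edgeR called no isolated peak, where 0.0508% of all autosomal peaks tested were called. DESeq2 called none either, and 83 isolated peaks had an unadjusted p under 0.05 in edgeR, 5.33% of those tested against 5.21% of all autosomal peaks. The median log2 fold change was 0.04, and 90% of isolated peaks lay between -0.47 and 0.63. On chromosome 1, which carries Wnt6, the 132 isolated peaks had a median of 0.03. The nearest ones were 1405 kb away near Tnp1 (1.23 and 0.94 CPM in the Wnt6 and 0.71 to 1.64 CPM in the other libraries) and 1411 kb away near Slc4a3 (2.37 and 2.46 CPM in the Wnt6 and 1.35 to 1.76 CPM in the other libraries). The Slc4a3 peak was higher in both Wnt6 libraries than in any other, with a log2 fold change of 0.75 ± 0.30 and an adjusted p of 0.920, and it was not called.

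The Hmx1 deletion gave no call among isolated peaks in edgeR either, where 0.0288% of all autosomal peaks tested were called. An unadjusted p under 0.05 was found at 95 isolated peaks (6.11%) and 9.03% of all autosomal peaks, and DESeq2 called 1, the Tmem62 peak at -1.17, which in edgeR had -1.16 ± 0.27 (adjusted p = 0.200). The median log2 fold change was 0.02, and 90% of isolated peaks lay between -0.62 and 0.59. On chromosome 5, which carries Hmx1, the 103 tested isolated peaks had a median of 0.05. The lowest value, -3.43, belonged to a peak near Gm46900 on that chromosome with 0, 22 and 0 counts in the Hoxa, 12 and 3 counts in the Wnt6 and 0 and 1 count in the Hmx1 libraries. It was picked after its value was seen, its counts lay mostly in 2 libraries of different deletions, and it had an adjusted p of 0.582. The nearest isolated peaks were 2771 kb away at the promoter window of Yes1, a kinase gene, with 2.20 and 2.56 CPM in the Hmx1 and 2.57 to 4.12 CPM in the other libraries (-0.38 ± 0.28, adjusted p = 0.723), and 3839 kb away within Gm40293.

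Taken pairwise, the contrast lay between Hoxa and each of the other deletions. Hoxa against Wnt6 alone called 23 isolated peaks, 4 higher and 19 lower (1.48%, where 1.32% of all autosomal peaks were called), and Hoxa against Hmx1 alone 21, 5 higher and 16 lower (1.35%, where 1.73% were called). Chromosome 8 held 12 and 11 of these. In both pairs 11 of the 29 peaks were called, 2 higher and 9 lower. Wnt6 against Hmx1 called no isolated peak in edgeR (0.0962% of all autosomal peaks), and 73 had an unadjusted p under 0.05. On chromosome 8 the median of isolated peaks was 0.44 in the Wnt6 and 0.44 in the Hmx1 comparison, each of which holds the Hoxa libraries among the others.

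By gene family, the calls among isolated peaks were few. In the Hoxa deletion 3 of the 57 peaks at neuronal channel, receptor and adhesion genes were called lower, the pair in Grm7 and that in Robo2, where 0.998% of all autosomal peaks were. In DESeq2, with the replicate block, with chromosome medians removed and at equal depth 1 of these 3 was called, the second in Grm7. Of the 12 at Zfp genes 1 was called higher, that in Zfp462, where 0.571% of all autosomal peaks were. A set of 12 is too small to set against that share. No isolated peak at a developmental transcription factor, signal, chemoreceptor or imprinted gene was called (the lower peak near Vmn1r158 lay 10.5 kb from it, just beyond 10 kb), and none of any family in the Wnt6 or Hmx1 deletion.

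The peaks nearest the thresholds of the rule are given as a description. Just inside the distance of 100 kb were peaks near Kcna4 (100.1 kb, 1.31 CPM) and within Slc40a1 (100.1 kb, 44.0 CPM), and just outside it peaks near Brinp3 (99.9 kb, 2.10 CPM) and at the promoters of Asb7 and Lins1 (99.9 kb, 17.9 CPM). Just inside the width of 2000 bp were peaks within Gm5487 (1993 bp, 14.4 CPM) and at the promoter of Chl1, a neuronal adhesion gene (1986 bp, 94.2 CPM), and just outside it those at P2ry1, a purinergic receptor gene (2008 bp, 178 CPM), and Fmn2 (2021 bp, 37.0 CPM). The 42 broad autosomal peaks that stood as far from others had a median of 110 CPM.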

How the data were processed

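H3K27me3 Cut&Tag libraries were made by the authors from mESCs with 3 deletions. The deposited table holds raw counts of the 7 H3K27me3 libraries over peaks and, per the labels, mm10. The submitters' processing notes name Bowtie2, Trimmomatic, SAMtools, Picard, MACS2 and deepTools, without roles or versions. How peaks were called and whether duplicates were removed was not given in the sources used here. PCR duplicates and a peak list made from some of the libraries could both affect the levels. The 7 IgG libraries were not analysed here, so that no background was subtracted. Groups come from the sample titles.

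Peaks and gene families were chosen with earlier results of these data known. Distances to the next peak counted all peaks of the table. Genes and promoter windows came from RefSeq (GRCm38.p6), which gave no exons here. Positions of peaks are given as deposited. Counts were analysed in R 4.3.3 with edgeR 4.0.16 (filterByExpr by genotype, TMM, glmQLFit and glmQLFTest, Benjamini-Hochberg adjustment over all peaks tested) and DESeq2 1.42.0, and described in Python 3.11.15. Log2 CPM for the spread of replicates used a prior count of 2. The procedure was tested on simulated data. Totals per library ranged from 6016500 to 36563541 counts, and counting intervals do not cover PCR.

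Named were the 12 peaks with the highest CPM, up to 6 called peaks per direction and deletion with the smallest adjusted p and no overlap of libraries, the 4 most remote, those nearest each deleted stretch, the 4 with the largest replicate spread at a mean count of at least 20, up to 4 per gene family and those at the thresholds. Other named peaks were chosen after their values were seen. Alternatives were DESeq2, other scalings, filters and models, single deletions as the comparison, a replicate block, equal depth, libraries left out, chromosome offsets and other thresholds of the rule.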

Additional observations from a re-analysis of the deposited data

How the results depend on the processing

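Calls in the Hoxa deletion went from 29 to 8 with chromosome medians removed, 16 without chromosome 8, 99 with no fold change minimum, 79 with a gap of 50 kb and 11 with a gap of 200 kb, where the number of isolated peaks differs. Replicate numbers did not pair the libraries (same-numbered deviations correlated at -0.0397 to 0.0698). With the replicate block 19 were called, of which 16 were among the 29, and DESeq2 called 21 of the 29. Calls were 20 to 29 over the libraries left out. Wnt6 gave 23 and Hmx1 21 calls against Hoxa alone. Hmx1 gave 1 call in DESeq2, with a term for each genotype, with equal depth and with a gap of 50 kb, and 0 to 1 over the libraries left out. Wnt6 gave 0 in each of these.

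The median log2 fold change of isolated peaks in Hoxa (-0.078) was -0.095 with chromosome medians removed, -0.060 against Hmx1 alone, -0.095 with the replicate block, -0.055 at equal depth, -0.045 with a gap of 50 kb, -0.114 with 200 kb, -0.095 at widths under 1000 bp, -0.066 without chromosome 8 and -0.094 to -0.054 without single libraries. For Wnt6 (0.040) it was 0.065 with library totals alone, 0.016 against Hmx1 alone, 0.072 against Hoxa alone, 0.0042 at equal depth, 0.060 with a gap of 200 kb, 0.062 at widths under 1000 bp and 0.0083 to 0.056 without single libraries. For Hmx1 (0.018) it ran from -0.028 to 0.059 without single libraries, so that its sign was not settled.

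The lower level of isolated peaks kept its sign in every alternative run, from -0.387 to -0.365 without single libraries. The difference in replicate spread was 0.0131 with a gap of 50 kb, 0.0127 with 200 kb and 0.0036 to 0.0143 without single libraries. Differences in the share of counts had no settled sign. Hoxa gave -0.0049 with a gap of 200 kb, -0.0011 without Hoxa replicate 2, -0.0065 without Hoxa replicate 3 and -0.0096 without Hmx1 replicate 2, and -0.0096 to 0.0144 over all libraries left out. Wnt6 gave -0.00078 without Hoxa replicate 1 and -0.0042 without Hmx1 replicate 2 (-0.0042 to 0.0115 over all), and Hmx1 0.0022 with a gap of 200 kb and 0.0240 without Hmx1 replicate 2 (-0.0386 to 0.0240 over all). Depth limits the weakest peaks, where a library may hold under 20 counts. The cause of these changes was not tested.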
